A study of Mus musculus with 399 samples.

Results

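The Ugt2b genes encode UDP-glucuronosyltransferases, membrane enzymes of the endoplasmic reticulum that join glucuronic acid from UDP-glucuronate to steroids, bile acids, lipid breakdown products and drugs. The products are more water-soluble and leave the body in bile and urine. Liver is the best known site of these enzymes, their substrates overlap, and in the mouse the genes lie side by side in a cluster on chromosome 5 that grew by gene duplication.

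Described here are 7 genes of 56980 in the count table: Ugt2b1, Ugt2b5, Ugt2b34, Ugt2b35, Ugt2b36, Ugt2b37 and Ugt2b38, found by matching Ensembl identifiers to gene symbols. They were selected on measured values of these libraries, with earlier results known. Which values chose them was not recorded, and those taken here as behind the choice are the differences between the strains on chow in liver, where TH minus B6 for Ugt2b5 was -7.41 on the log2 scale at 20 weeks, the way the sex difference of Ugt2b37 differed between the strains (-4.97), and rises of Ugt2b34 on high-fat in pancreas at 20 weeks (1.36 in B6 and 1.78 in TH). Ugt2b34 also ranked 10 among rises on high-fat at 5 weeks and 17 among falls with age in pancreas. Comparisons of those kinds on chow in liver, and of diet and age in pancreas, are given below as values without a test. The choice had no threshold. Other comparisons share libraries with these or repeat them on high-fat, and are to that extent not independent of the choice.

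The study set inbred TALLYHO/Jng mice (TH), a polygenic model in which males in particular become obese and hyperglycaemic, against C57BL/6J mice (B6), the common laboratory strain. Male and female mice were put on chow or a high-fat diet (HF) when weaned at 4 weeks of age. They were sampled at 5 or at 20 weeks of age, after 1 or 16 weeks of feeding. Liver gave 96 libraries in 16 groups of 6 mice and pancreas 110 libraries in 16 groups of 6 to 10 mice, out of 399 libraries of 4 tissues. The 16 groups of a tissue are all combinations of strain, sex, diet and age. The labels name no engineered allele and no drug. TH differs from B6 at many loci, so a strain difference cannot be assigned to any single one, and each strain is 1 inbred line.

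Liver libraries held 6599595 to 17542373 counted reads and pancreas libraries 1173484 to 11731391. A level below is in CPM, the gene's count relative to the library size scaled by TMM, a factor that evens out differences in RNA composition, and levels of different genes are compared only in the deposited FPKM, which divide by gene length. Hepatocyte markers summed to between 25652 and 50112 CPM in all 96 livers, and acinar markers to between 44727 and 232415 CPM in all 110 pancreases. In liver, a list of 6 bile duct markers summed to between 37.6 and 89.6 CPM in B6 and between 20.98 and 49.98 CPM in TH. A list of 5 Kupffer cell markers summed to between 75.2 and 556 CPM in B6 and between 38.7 and 185 CPM in TH. No gene of these lists was at 0 throughout, and the part of other cell types in the results below was not tested. In whole tissue, fewer cells of a type and less RNA per cell cannot be told apart.

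The promoters of all 7 genes hold GTTA and, after 5 more bases, TAAC. The pattern was noticed in these sequences before it was searched for, on both strands, from 250 bases before to 50 bases after each start. It is found in 109 of 32851 RefSeq promoters of that length (0.332%). The stretch from 12 bases before the match to the last base before the start site is printed for each gene. Ugt2b5, Ugt2b37 and Ugt2b38 share the letters of the match and most of those after it. Ugt2b36 shares many of the letters after the match too. Levels in TH liver were low for Ugt2b5, Ugt2b38 and, in males, Ugt2b37, while Ugt2b36 was higher in TH. The part of these letters in the levels was not tested. Capitals mark the match, and each sequence reads 5′ to 3′ toward the gene, from RefSeq on GRCm38.p6.
Ugt2b34, chr5:86906938-86907022, minus strand: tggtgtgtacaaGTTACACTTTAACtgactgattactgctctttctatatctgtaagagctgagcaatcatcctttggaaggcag
Ugt2b1, chr5:86926504-86926604, minus strand: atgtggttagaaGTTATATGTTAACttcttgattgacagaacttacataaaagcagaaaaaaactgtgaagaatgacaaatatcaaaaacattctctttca
Ugt2b35, chr5:87000778-87000859, plus strand: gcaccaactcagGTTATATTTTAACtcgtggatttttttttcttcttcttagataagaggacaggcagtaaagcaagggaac
Ugt2b36, chr5:87092556-87092631, minus strand: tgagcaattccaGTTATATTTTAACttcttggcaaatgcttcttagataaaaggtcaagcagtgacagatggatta
Ugt2b5, chr5:87140341-87140413, minus strand: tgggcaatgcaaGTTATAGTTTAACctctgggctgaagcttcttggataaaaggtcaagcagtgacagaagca
Ugt2b37, chr5:87254789-87254878, minus strand: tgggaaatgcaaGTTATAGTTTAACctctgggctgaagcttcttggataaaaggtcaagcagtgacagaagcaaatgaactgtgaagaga
Ugt2b38, chr5:87424204-87424279, minus strand: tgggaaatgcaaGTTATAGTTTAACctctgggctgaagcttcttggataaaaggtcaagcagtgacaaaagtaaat

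In Ugt2b5, Ugt2b37 and Ugt2b38 the match reads GTTATAGTTTAAC, and Ugt2b35 and Ugt2b36 share GTTATATTTTAAC. The match begins 61 to 89 bases before the start in all 7 genes. The STAT5 letters, TTC and GAA 3 bases apart, were in no member's promoter and in 8.30% of all promoters, which says only that these letters are not in this window. Sequences are those of the reference strain, and the TH promoters were not examined.

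The coding sequences show the same trio. Ugt2b5 and Ugt2b38 were identical at 97.04% of aligned coding bases, Ugt2b5 and Ugt2b37 at 94.65% and Ugt2b37 and Ugt2b38 at 94.09%, against 71.11% to 88.43% for every other pair. Of all stretches of 100 bases in its transcript, Ugt2b5 shared 24.7% exactly with another gene's transcript, each of these with Ugt2b38, and Ugt2b38 shared 24.2%. The share was 1.06% for Ugt2b37, 0.407% for Ugt2b34 (with Ugt2a3) and 0 for Ugt2b1, Ugt2b35 and Ugt2b36. For stretches of 50 bases it was 41.7% for Ugt2b5, 37.4% for Ugt2b38 and 18.3% for Ugt2b37. It was then 2.065% for Ugt2b34, 0.725% for Ugt2b35, 0.326% for Ugt2b36 and 0 for Ugt2b1. Reads from shared stretches could be placed on either gene or dropped. The separate values of Ugt2b5 and Ugt2b38, and to a lesser degree of Ugt2b37, are therefore uncertain. Reads were aligned to the GRCm39 reference, and the effect of TH sequence variants on any of the values below was not tested.

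In B6 liver Ugt2b5 had the highest level per length, 302.6 ± 110 FPKM (SD, n = 48 mice). It was followed by Ugt2b36 at 193 ± 43.7 and Ugt2b1 at 165 ± 92.4 FPKM, which did not differ beyond their spread. Ugt2b34 (93.3 ± 17.4), Ugt2b38 (82.9 ± 35.5) and Ugt2b35 (52.4 ± 21.98 FPKM) came next with overlapping spreads, and Ugt2b37 was lowest at 16.7 ± 5.95 FPKM.

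The order in TH liver was different. By mean Ugt2b36 led with 301 ± 99.5 FPKM (SD, n = 48 mice) and Ugt2b1 followed with 238.4 ± 114 FPKM. Females on chow at 20 weeks had 211 to 284 FPKM of Ugt2b36 and 116 to 148 FPKM of Ugt2b1. In males on high-fat at 5 weeks the ranges overlapped, with 355 to 441 FPKM of Ugt2b36 and 399 to 446 FPKM of Ugt2b1. Ugt2b34 stood at 94.2 ± 17.5 and Ugt2b35 at 68.8 ± 32.1 FPKM. The trio lay at the bottom, with 9.09 ± 9.89 FPKM for Ugt2b37, 4.56 ± 4.55 for Ugt2b38 and 1.83 ± 1.26 for Ugt2b5. These means span both sexes, diets and ages, so the SD holds those differences too.

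**Figure D1:**
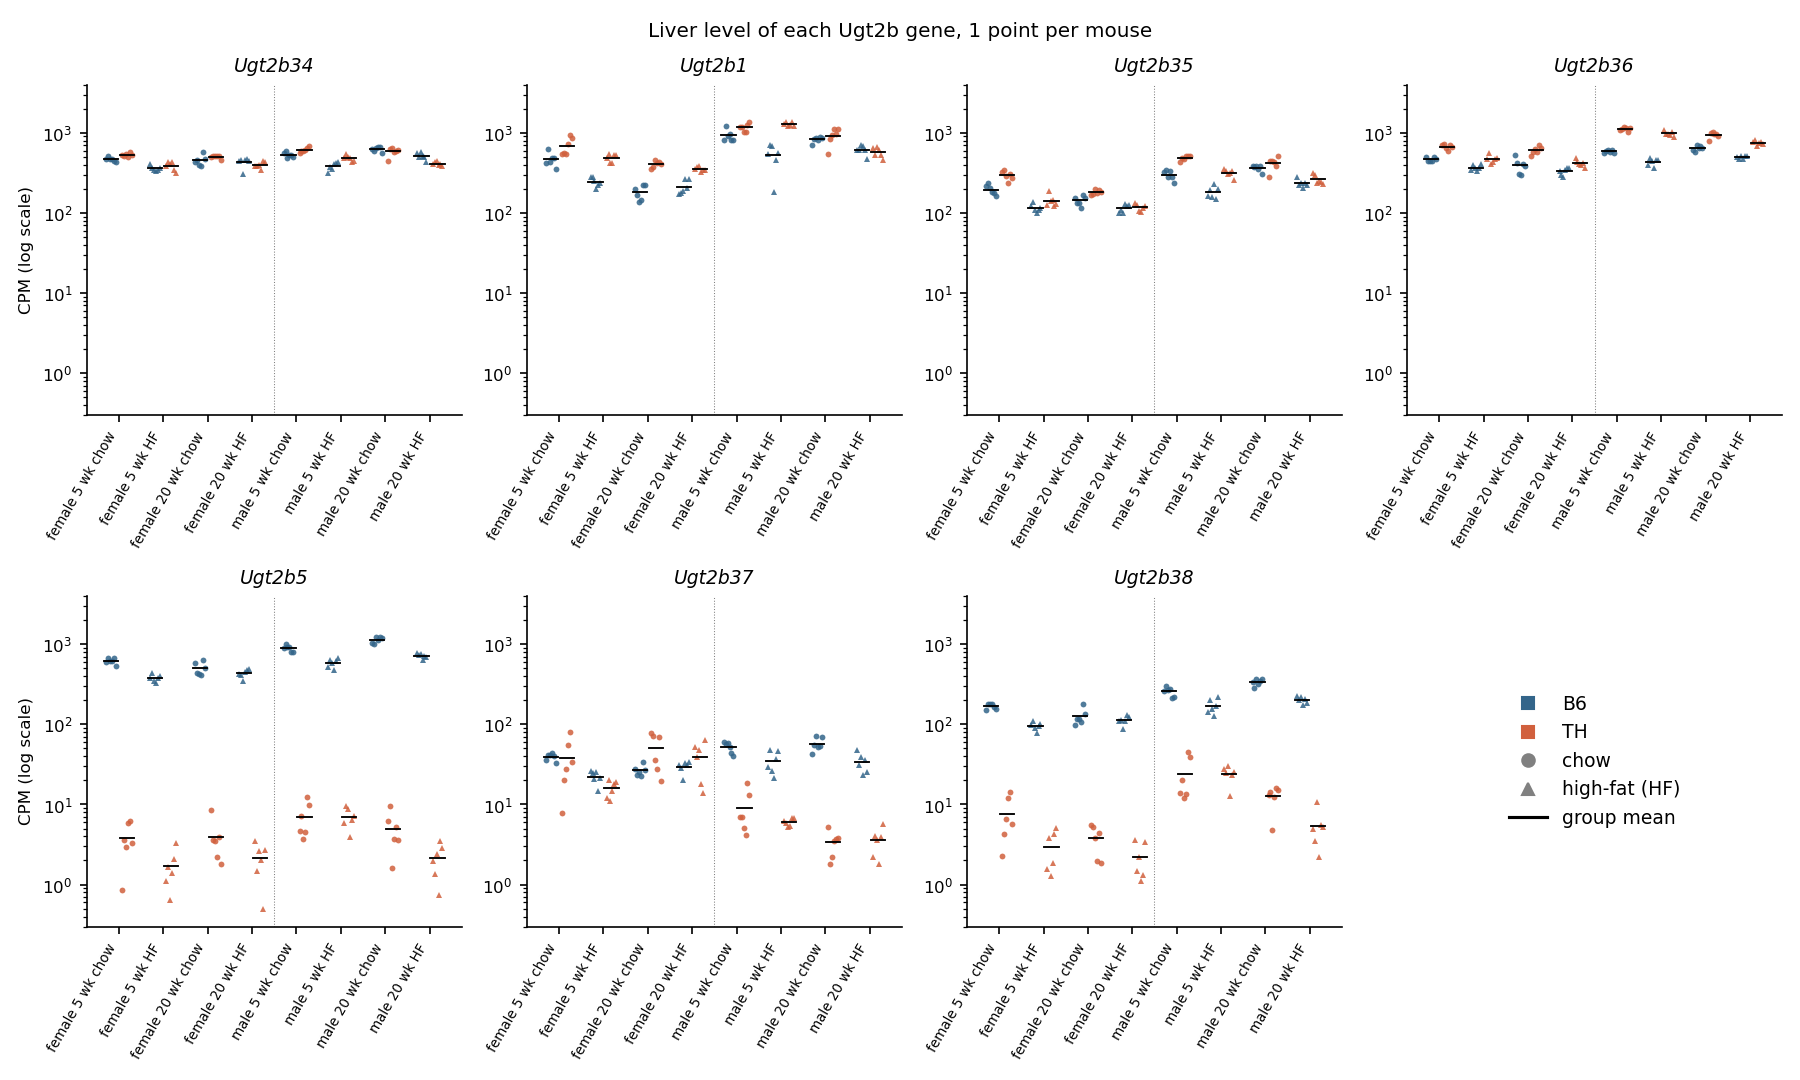
Liver level of each Ugt2b gene in CPM on a log axis, with 1 point for each of 96 mice (B6 blue, TH orange, chow circles, high-fat triangles) and a black bar at each group's mean. Ugt2b5 and Ugt2b38 form separate bands for the strains, Ugt2b37 is low in TH males and spread out in TH females, and the bands of the strains overlap for the other genes.

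The first question is how the strains differ in liver on the high-fat diet. These libraries are not among the values taken as behind the choice of members. The same strain difference on chow is among them, so the counts below are not independent of the choice. Over the 4 comparisons of TH with B6 (each sex at each age), 21 of 28 gene values passed an adjusted p of 0.05 in edgeR's quasi-likelihood test, 10 higher and 11 lower in TH. Across all 17243 genes tested the share was 31.1%. The ranges of the strains did not overlap for 17 of the 28 values, where the share over all genes was 15.4%. Adjusted p-values here are Benjamini-Hochberg values over all genes of a comparison. They set a difference against the spread between mice within groups.

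Ugt2b5 was all but missing from TH liver. In females on high-fat at 20 weeks the lowest, median and highest levels were 344, 439 and 491 CPM in B6 and 0.498, 2.34 and 3.53 CPM in TH. In males they were 640, 727 and 779 CPM in B6 and 0.745, 2.18 and 3.502 CPM in TH. Every TH mouse was far below every B6 mouse in both sexes.

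The same held at 5 weeks. B6 females had 332, 377 and 431 CPM and TH females 0.642, 1.53 and 3.29 CPM. B6 males had 472, 598 and 680 CPM and TH males 3.90, 6.78 and 9.48 CPM. On the log2 scale the difference, TH minus B6, ranged from -8.41 ± 0.32 (SE; adjusted p = 3.5e-39, males at 20 weeks) to -6.39 ± 0.28 (adjusted p = 2.5e-34, males at 5 weeks). Over all groups the highest TH level of Ugt2b5 was 12.3 CPM and the lowest B6 level 332 CPM. TH livers still gave 6 to 132 Ugt2b5 reads per library, where B6 livers gave 4198 to 11568.

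Ugt2b38, the closest relative of Ugt2b5, was low in the same mice but less so. In females on high-fat at 20 weeks B6 had 87.6, 113 and 131 CPM (lowest, median, highest) and TH 1.11, 1.85 and 3.60 CPM. In males B6 had 174, 206 and 224 CPM and TH 2.24, 5.11 and 10.8 CPM. The ranges stood apart, as they did at 5 weeks.

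TH males at 5 weeks kept the most Ugt2b38, with 12.9, 25.1 and 30.3 CPM against 126, 161 and 220 CPM in B6 males. The log2 differences were -5.71 ± 0.32 (females) and -5.23 ± 0.31 (males) at 20 weeks, and -5.003 ± 0.31 and -2.80 ± 0.26 at 5 weeks, with adjusted p of at most 3.1e-15. On chow, where the members were chosen, the values of both genes were alike: -7.83 to -6.97 for Ugt2b5 and -5.05 to -3.42 for Ugt2b38.

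Ugt2b37 was low in TH males, while TH females overlapped with B6 females. Males on high-fat at 20 weeks had 23.2, 33.5 and 48.2 CPM in B6 and 1.81, 3.79 and 5.66 CPM in TH, with no overlap (log2 difference -3.26 ± 0.36, adjusted p = 2.7e-12). Males at 5 weeks had 21.7, 33.1 and 47.8 CPM in B6 and 5.25, 6.10 and 6.84 CPM in TH (-2.50 ± 0.34, adjusted p = 4.3e-09). Every TH male was below every B6 male at both ages.

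At 20 weeks on high-fat B6 females had 20.2, 30.7 and 33.6 CPM of Ugt2b37 and TH females 13.9, 43.8 and 63.96 CPM (0.42 ± 0.28, adjusted p = 0.27). At 5 weeks they had 14.7, 23.2 and 26.3 CPM in B6 and 11.2, 16.4 and 20.4 CPM in TH (-0.48 ± 0.29, adjusted p = 0.21). Apart from high-fat at 5 weeks, TH females varied more between mice than B6 females. On chow at 5 weeks TH females ranged from 7.79 to 80.3 CPM and B6 females from 33.3 to 43.8 CPM.

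Ugt2b36 and Ugt2b1 went the other way. Ugt2b36 was higher in TH in all 4 comparisons, most in males at 5 weeks, which had 363, 454 and 480 CPM in B6 and 872, 970 and 1097 CPM in TH. The ranges did not overlap, and the log2 difference was 1.17 ± 0.08 (adjusted p = 5.9e-22). It was 0.59 in males at 20 weeks, 0.36 in females at 5 weeks and 0.34 in females at 20 weeks (largest adjusted p 5.1e-04).

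Ugt2b1 was higher in TH in 3 of 4 comparisons. Females at 5 weeks had 196, 242.5 and 283 CPM in B6 and 419, 504 and 546 CPM in TH (1.00 ± 0.16, adjusted p = 2.4e-07). Males at 5 weeks had 183, 555 and 701 CPM in B6 and 1225, 1270 and 1369 CPM in TH (1.30 ± 0.16, adjusted p = 1.1e-10). In both, every TH mouse was above every B6 mouse, and 1 B6 male lay well below the other B6 males. Females at 20 weeks differed by 0.74 ± 0.16 (adjusted p = 9.2e-05). Males at 20 weeks overlapped, with 466, 608 and 705 CPM in B6 and 453, 570 and 672 CPM in TH (-0.10 ± 0.16, adjusted p = 0.70).

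Ugt2b35 rose in TH at 5 weeks, from 150, 180 and 227 CPM in B6 males to 259, 323 and 353 CPM in TH males (0.79 ± 0.11, adjusted p = 1.6e-09), with no overlap. The smaller rise in females (0.30 ± 0.10, adjusted p = 0.021) was lost without libraries that lay far from their group (adjusted p = 0.116). At 20 weeks Ugt2b35 differed by 0.05 in females and 0.16 in males and did not pass. Ugt2b34 was the steadiest member, between 304 and 676 CPM in all 96 livers. It was higher in TH males at 5 weeks (0.32 ± 0.08, adjusted p = 0.0013) and lower in TH males at 20 weeks (-0.32 ± 0.08, adjusted p = 0.0019).

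Along the chromosome the genes with low TH levels were not all adjacent. The order in the GRCm38 annotation is Ythdc1, Ugt2b34, Ugt2b1, Ugt2b35, Ugt2b36, Ugt2b5, Ugt2b37, Ugt2a3, Ugt2b38 and Sult1b1, with Ugt2a1 and Ugt2a2 before Sult1b1. Ugt2a3, a related enzyme that lies between Ugt2b37 and Ugt2b38, differed by -0.49 to 0.39 on the log2 scale on high-fat. Sult1b1, a sulfotransferase at one end of the cluster, differed by -0.17 to 0.44. Ythdc1, an RNA-binding protein gene at the other end, differed by -0.28 to 0.11.

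**Figure D2:**
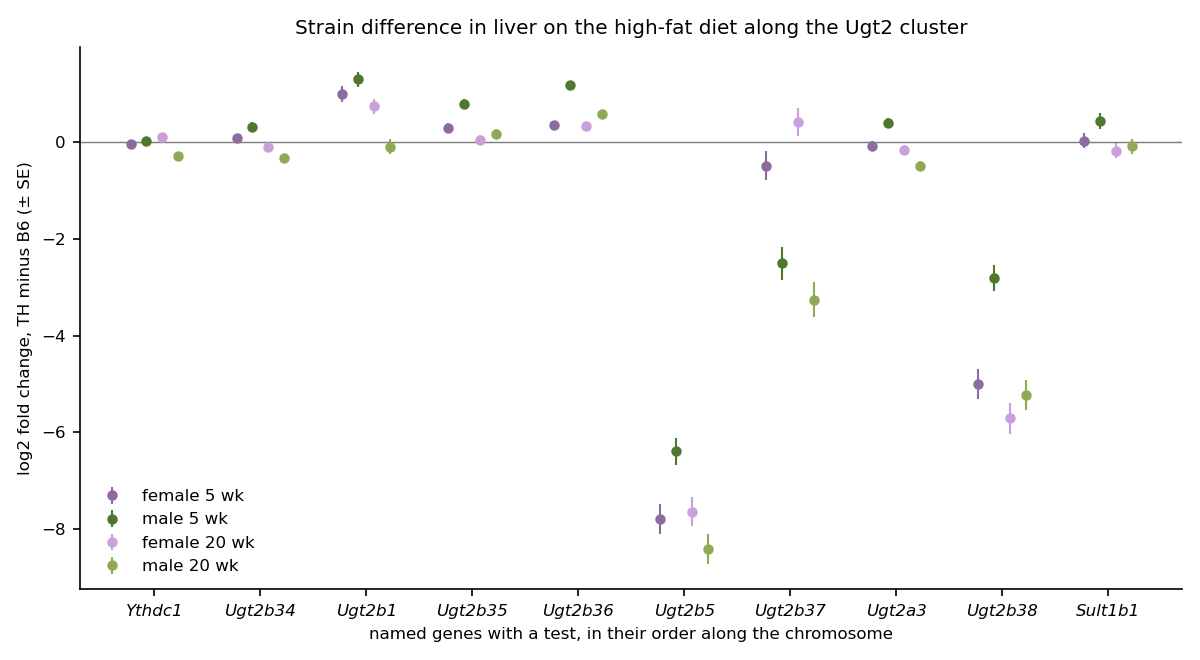
Log2 difference of TH minus B6 in liver on the high-fat diet (vertical axis) for 10 tested genes of the cluster in chromosome order (horizontal axis), with 4 points per gene for each sex and age and bars of 1 SE. Ugt2b5 and Ugt2b38 lie far below 0 at all points and Ugt2b37 does so in males. The points of Ugt2a3, between Ugt2b37 and Ugt2b38, lie on both sides of 0.

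Summed over the 7 genes in FPKM, the median of TH livers was below that of B6 livers in 3 of the 4 high-fat groups. Males at 20 weeks summed to 920, 994 and 1075 FPKM in B6 (lowest, median, highest of 6 mice) and to 582, 637 and 701 FPKM in TH. Females at 20 weeks summed to 471, 601 and 654 FPKM in B6 and to 363, 408 and 457 FPKM in TH. The ranges did not overlap at 20 weeks.

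At 5 weeks the sexes differed. Females summed to 502, 569 and 626 FPKM in B6 and to 417, 464 and 533 FPKM in TH, with overlap. Males summed to 626, 862 and 984 FPKM in B6 and to 922, 1010 and 1052 FPKM in TH, also with overlap and with TH higher at the median. Ugt2b5, Ugt2b37 and Ugt2b38 made up 38.9% to 50.7% of the family in each B6 liver and 0.332% to 8.11% in each TH liver. These sums hold the strain difference that chose the members and are given without a test.

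The second question is sex. Leaving out Ugt2b37 on chow at 20 weeks, which helped to choose the members, 43 of 54 liver values passed between males and females, 40 higher in males and 3 lower. Over all genes and comparisons of sex 21.4% passed, 10.4% higher in males and the others lower. The median over all genes lay between -0.05 and 0 in these comparisons. Library depth went with sex in liver. Female libraries held 10277608 to 17542373 reads with TMM factors of 0.978 to 1.233. Male libraries held 6599595 to 12267829 reads with factors of 0.805 to 1.267. The part of depth in the sex differences was not tested. The ranges of the sexes did not overlap for 35 of the 54 values, where the share over all genes was 9.3%.

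Ugt2b1, Ugt2b35 and Ugt2b36 were higher in males in all 8 comparisons of strain, diet and age. Ugt2b1 differed most in B6 on chow at 20 weeks, with 138, 183 and 226 CPM in females and 704, 838 and 892 CPM in males (log2 difference, male minus female, 2.17 ± 0.16, adjusted p = 1.3e-19). The ranges were far apart, and over the other comparisons its difference was between 0.70 and 1.54. Ugt2b35 differed by 0.62 to 1.36 with no overlap in any of the 8 comparisons, and Ugt2b36 by 0.25 to 1.07. The values for Ugt2b35 in B6 on chow at 20 weeks were 116, 143 and 167 CPM in females and 303, 381 and 390 CPM in males.

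Ugt2b5 and Ugt2b38 were higher in males in most comparisons, in TH at low levels. Ugt2b38 passed in 7 of 8, the largest in TH on high-fat at 5 weeks. There TH females had 1.28, 2.85 and 5.05 CPM and TH males 12.9, 25.1 and 30.3 CPM, with no overlap (3.02 ± 0.31, adjusted p = 4.5e-13). Ugt2b5 passed in 5 of 8. It was higher in the same TH males at 5 weeks (2.02 ± 0.32, adjusted p = 6.7e-07) and did not pass in TH on high-fat at 20 weeks (-0.04 ± 0.36, adjusted p = 0.96). In B6 on chow at 20 weeks Ugt2b5 stood at 418, 472 and 631 CPM in females and 997, 1166 and 1216 CPM in males (1.18 ± 0.21, adjusted p = 6.9e-06), again with no overlap.

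Ugt2b37 was lower in TH males than in TH females. TH females on high-fat at 20 weeks had 13.9, 43.8 and 63.96 CPM and TH males 1.81, 3.79 and 5.66 CPM, with every male below every female (-3.47 ± 0.36, adjusted p = 2.3e-13). The difference was -1.38 ± 0.35 on high-fat at 5 weeks (adjusted p = 0.0016) and -2.02 ± 0.32 on chow at 5 weeks (adjusted p = 1.5e-06). On chow at 20 weeks, given as a description, it was -3.88 in TH and 1.09 in B6. In B6 the other comparisons gave 0.21 to 0.63 and did not pass. The tested values of Ugt2b37 repeat that difference in other groups and are not independent of the choice. Ugt2b34 differed by 0.04 to 0.47 and passed in 4 of 8.

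Known sex-biased liver genes moved as their lists are named in the same libraries: 12 to 15 of 15 male-biased genes were higher and 13 to 17 of 17 female-biased genes lower in males in each of the 8 comparisons. Calls that did not hold under every alternative were 5, each with a difference of at most 0.92: Ugt2b5 in B6 on high-fat and in TH on chow at 5 weeks, Ugt2b36 in B6 on high-fat at 5 weeks, and Ugt2b34 in B6 on high-fat and in TH on chow at 20 weeks.

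**Figure D3:**
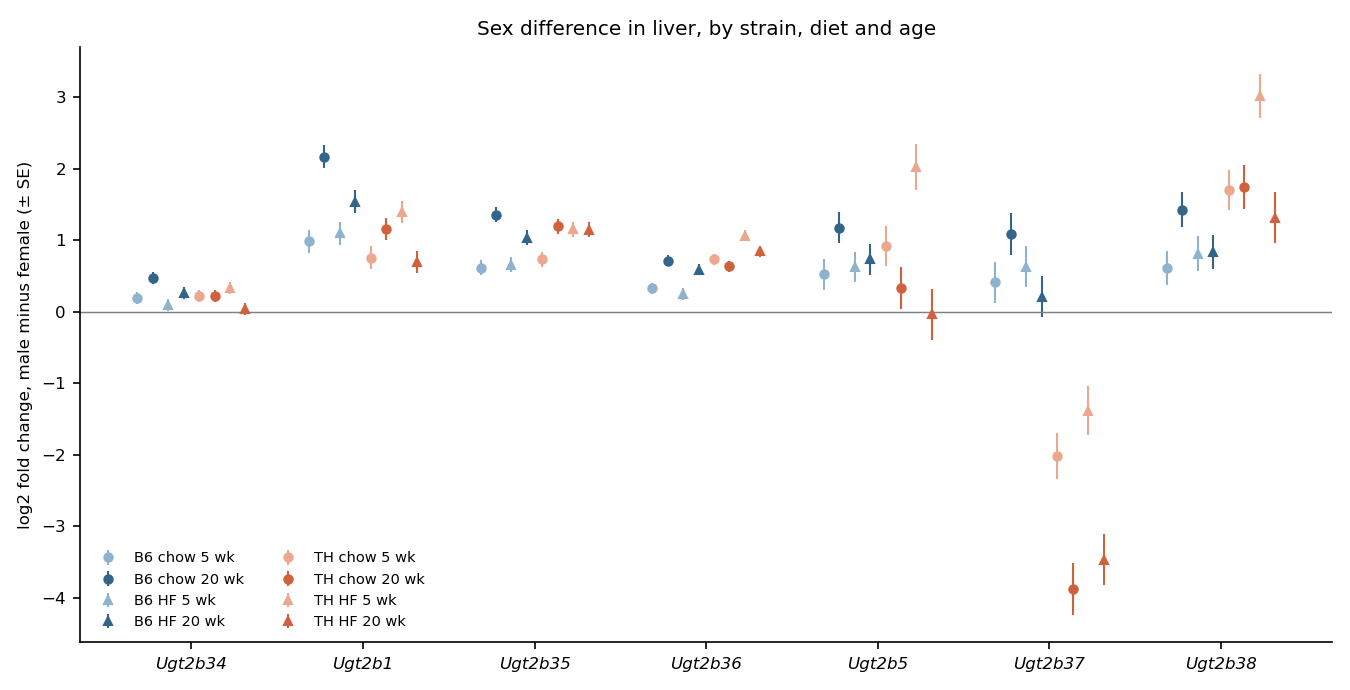
Log2 difference of males minus females in liver (vertical axis) for each Ugt2b gene (horizontal axis), with 8 points per gene for each strain, diet and age and bars of 1 SE. Ugt2b1, Ugt2b35 and Ugt2b36 lie above 0 at every point, and Ugt2b37 lies below 0 in TH and above 0 in B6.

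Whether the sex difference itself differed between the strains was tested on high-fat as strain by sex. At 5 weeks 5 of 7 genes passed (3.61% of all genes) and at 20 weeks 2 of 7 (8.66%). At 5 weeks the excess of males over females was larger in TH for Ugt2b38 (2.201 ± 0.39 on the log2 scale, adjusted p = 1.1e-04), Ugt2b5 (1.39 ± 0.39, 0.022), Ugt2b36 (0.82 ± 0.11, 4.3e-07) and Ugt2b35 (0.50 ± 0.15, 0.038). Ugt2b37 went the other way, by -2.02 ± 0.45 (adjusted p = 0.003). The value for Ugt2b35 did not pass without the filter on low counts or with only the groups compared in the fit.

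At 20 weeks Ugt2b37 differed by -3.67 ± 0.46 (adjusted p = 1.2e-08) and Ugt2b1 by -0.84 ± 0.22 (adjusted p = 0.0091). The sex difference of Ugt2b1 was smaller in TH, where males on high-fat had 453, 570 and 672 CPM and females 324, 348 and 383 CPM. In B6 males had 466, 608 and 705 CPM and females 172, 196 and 263 CPM. On chow, as a description, the same term was -2.43 at 5 weeks and -4.97 at 20 weeks for Ugt2b37, and -0.23 and -1.01 for Ugt2b1. The Ugt2b37 value on chow is taken as behind the choice. Its high-fat values, and the counts of strain by sex that hold them, are therefore not independent of the choice.

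The third question is diet. The family was lower on high-fat: 29 of 42 liver values passed and all 29 were lower, where 15.1% of all genes passed and 7.84% were lower. At 20 weeks the ranges of the diets did not overlap for 7 of 28 values, against 5.66% of all genes. At 20 weeks the strains and sexes were compared apart, and at 5 weeks the sexes were averaged. The comparisons of strain, sex, diet and age share groups of mice, so a group that is high or low enters several of them.

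Ugt2b35 and Ugt2b36 fell in all 6 comparisons. In TH males at 20 weeks Ugt2b35 went from 284, 438 and 509 CPM on chow to 232, 246.9 and 311 CPM on high-fat, ranges that overlapped (-0.67 ± 0.10, adjusted p = 5.9e-07). In B6 males at 20 weeks it went from 303, 381 and 390 CPM to 205, 230 and 277 CPM without overlap (-0.65 ± 0.10, adjusted p = 3e-06). The falls of Ugt2b35 ran from -0.84 to -0.32 and those of Ugt2b36 from -0.54 to -0.25.

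Ugt2b34 fell in 5 of 6, by 0.28 to 0.51 on the log2 scale. It did not pass in B6 females at 20 weeks (-0.07 ± 0.08, adjusted p = 0.59). Ugt2b5 and Ugt2b38 fell in 4 of 6 comparisons each. B6 males at 20 weeks had 997, 1166 and 1216 CPM of Ugt2b5 on chow and 640, 727 and 779 CPM on high-fat, with no overlap (-0.65 ± 0.21, adjusted p = 0.035). The falls of Ugt2b5 and Ugt2b38 in TH at 20 weeks, to -1.24, were at levels of a few CPM.

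Ugt2b1 fell in B6 after 1 week of high-fat feeding. B6 females at 5 weeks went from 349, 459 and 624 CPM to 196, 242.5 and 283 CPM, and B6 males from 810, 867 and 1228 CPM to 183, 555 and 701 CPM. Neither pair overlapped (-0.88 ± 0.11, adjusted p = 1.5e-09). TH mice at 5 weeks did not pass (-0.19 ± 0.11, adjusted p = 0.34), with TH males at 1019, 1180 and 1358 CPM on chow and 1225, 1270 and 1369 CPM on high-fat. The difference between the strains was 0.70 ± 0.16 (adjusted p = 0.0085) and was 0.60 ± 0.13 (adjusted p = 0.0078) without the low B6 male. It was the only one of 14 strain by diet values that passed (2.62% of all genes). At 20 weeks Ugt2b1 fell in TH males, from 543, 942 and 1119 CPM on chow to 453, 570 and 672 CPM on high-fat, with overlap (-0.67 ± 0.16, adjusted p = 8.3e-04), and did not pass in the other 3 comparisons. Ugt2b37 fell at 5 weeks in both strains (-0.71 ± 0.20 in B6 and -0.92 ± 0.24 in TH) and did not pass at 20 weeks.

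Targets of drug-sensing receptors, and 2 genes named below that serve glucuronidation, fell in the same livers. Of 15 targets of the drug-sensing receptors CAR and PXR, 11 to 15 fell in each of the 6 comparisons, with medians of -1.72 to -1.12 on the log2 scale beside a median near 0 (-0.01 to 0.01) over all genes. Cyp2b10, the standard CAR target, fell most in males at 20 weeks (-7.26 ± 0.68 in B6 and -7.40 ± 0.56 in TH). Cyp3a41a rose in B6 females at 20 weeks (2.15 ± 0.35). Ugdh, which makes UDP-glucuronate, fell in all 6, from -1.55 ± 0.12 in TH at 5 weeks to -0.78 ± 0.16 in TH males at 20 weeks. Abcc3, which exports glucuronides to blood, also fell in all 6, by -2.02 to -1.27.

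The rest of the pathway moved less. Of 16 genes that make, move or remove UDP-glucuronate and glucuronides, 3 to 8 fell and 0 to 3 rose. Of 12 tested Ugt genes outside the family, 1 to 7 fell and 0 to 2 rose. Of 18 receptors and liver factors, 0 to 4 fell and 0 to 2 rose, and PXR (Nr1i2) fell in all 4 comparisons at 20 weeks by -0.56 to -0.34, while CAR (Nr1i3) fell in B6 females at 20 weeks (-1.12). A list of intestine markers was higher in livers on high-fat, with group medians of 56.1 to 85.7 CPM against 35.9 to 43.9 CPM on chow, and Kupffer cell markers had group medians of 116 to 256.25 CPM against 102.7 to 170 CPM on chow. The part of either list in the falls was not tested. Calls of members that did not hold under every alternative were 6 of the 29: Ugt2b5 and Ugt2b38 in B6 males, Ugt2b5 in TH females and Ugt2b35 and Ugt2b36 in B6 females at 20 weeks, and Ugt2b38 in TH at 5 weeks.

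**Figure D4:**
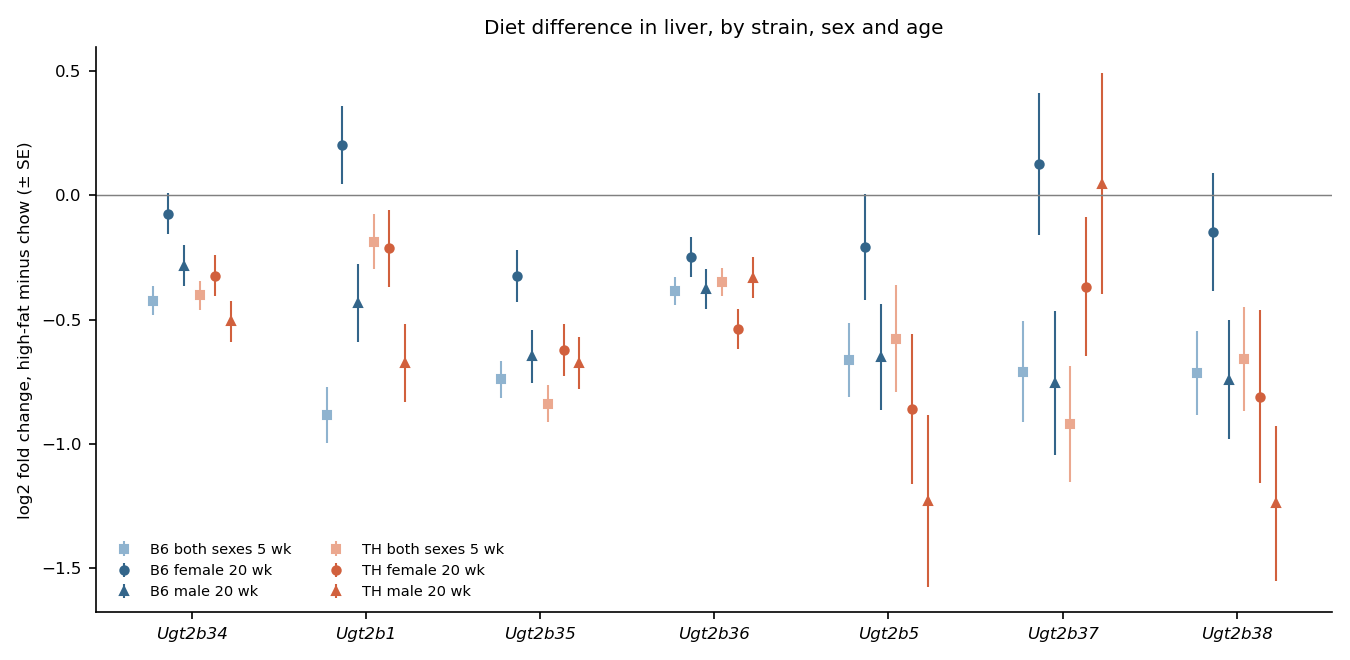
Log2 difference of high-fat minus chow in liver (vertical axis) for each Ugt2b gene (horizontal axis), with 6 points per gene, 4 for each strain and sex at 20 weeks and 2 for each strain at 5 weeks, and bars of 1 SE. Ugt2b35 and Ugt2b36 lie below 0 at every point.

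Between 5 and 20 weeks on chow, 8 of 28 values passed and all were lower at 20 weeks (8.27% of all genes passed and 4.55% were lower). The ranges of the ages did not overlap for 4 values (3.82% of all genes). Ugt2b1 fell in females, in B6 from 349, 459 and 624 CPM to 138, 183 and 226 CPM, with no overlap (-1.35 ± 0.16, adjusted p = 1e-09). In TH females it went from 535, 637 and 934 CPM to 356, 414 and 462 CPM, again apart (-0.76 ± 0.16, adjusted p = 4.8e-04). Ugt2b35 fell in the same females, by -0.45 ± 0.10 in B6 (adjusted p = 0.0016) and by -0.69 ± 0.10 in TH (adjusted p = 9.9e-07).

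The other falls with age were small or at low levels. They were Ugt2b36 in B6 females (-0.25, adjusted p = 0.031), Ugt2b37 in TH males (-1.43, adjusted p = 0.022) and Ugt2b38 in TH females (-0.96, adjusted p = 0.038) and TH males (-0.92, adjusted p = 0.037), and each of these 4 was lost under at least 1 alternative. No member passed in B6 males with edgeR or DESeq2, and 2 had an unadjusted p under 0.05, Ugt2b34 (0.22 ± 0.08) and Ugt2b35 (0.29 ± 0.10).

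Other Ugt genes differed between the strains on high-fat in both directions. Of 12 tested, 3 or 4 were higher and 4 to 8 lower in TH in each comparison. Ugt3a2, which uses other sugars than glucuronic acid, differed by -5.85 to -3.36 on the log2 scale and Ugt3a1 by -3.61 to -2.17. Ugt1a9 differed by 1.83 to 4.25 and Ugt1a1, the bilirubin enzyme, by -1.98 to -0.67, all past the threshold. Ugt1a genes share their last exons, so the split of reads among them is uncertain. Of 16 genes that make, move or remove UDP-glucuronate and glucuronides, 5 or 6 were higher and 2 to 4 lower in TH in each comparison. Of 18 receptors and liver factors, 3 or 4 were higher and 0 to 3 lower. Of 15 CAR and PXR targets, 0 to 5 were higher and 4 to 6 lower. Among the genes of these lists, Ugdh, Stat5b and Nr1i3 did not pass in any comparison of the strains on high-fat.

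Among the genes whose log2 level was most like that of Ugt2b5 over the 96 livers were complement genes, C1s1 (Pearson's r = 0.981) and Cfhr2 (0.975), of 10727 genes compared. Cfhr2 (0.931) and Pop4 (0.924) were among those most like Ugt2b38. For Ugt2b35 they were Aox1 (0.905), Gstp2 and Gstp1 (0.876 each), for Ugt2b36 Aox3 (0.877), Car3 (0.873) and Slc35e3 (0.870), and for Ugt2b1 C9 (0.908), Serpina1c (0.907) and Hsd3b2 (0.892). Ugt2b34 was most like Cyp2c29 (0.800), Ugdh (0.799) and Pgrmc1 (0.787), and Ugt2b37 most like Cobl (0.796), As3mt (0.777) and Sult1a1 (0.747). In pancreas Ugt2b34 was most like Hjurp (0.740), Col4a2 and Col4a1 (0.728 each) over 110 libraries and 8707 genes. Within the family r was 0.965 between Ugt2b5 and Ugt2b38 and 0.880 between Ugt2b35 and Ugt2b36. All points share the same strains, sexes and libraries, so these are descriptions.

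In pancreas the family was nearly silent apart from Ugt2b34. Over 54 B6 and 56 TH libraries, Ugt2b34 gave 3964 and 2031 reads and Ugt2b35 gave 128 and 20. Ugt2b36 gave 9 and 3 reads, Ugt2b1 3 and 2, and Ugt2b5 and Ugt2b38 2 reads each in B6 and none in TH. Ugt2b37 had no read, which allows up to 0.00879 CPM in B6 and 0.00952 in TH, for counting error only. Only Ugt2b34 passed the filter on low counts, among 13367 genes tested. Hepatocyte markers summed to between 5.89 and 49.1 CPM in pancreas.

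Ugt2b34 was lower in TH pancreas on high-fat in 4 of 4 comparisons (15.3% of all genes passed and 8.34% were lower, and 6.32% had ranges that did not overlap). Males at 5 weeks had 17.4, 23.1 and 27.2 CPM in B6 and 7.30, 9.56 and 11.9 CPM in TH, with no overlap (-1.23 ± 0.15, adjusted p = 1.8e-11). Females at 5 weeks had 12.5, 16.9 and 20.5 CPM in B6 and 9.01, 11.7 and 14.6 CPM in TH, with overlap (-0.56 ± 0.14, adjusted p = 8.9e-04). At 20 weeks the difference was -1.12 ± 0.26 in females (adjusted p = 7.8e-04) and -0.93 ± 0.20 in males (adjusted p = 2.6e-04). The 20-week high-fat libraries also entered the diet rise taken as behind the choice. The 5-week high-fat libraries entered the diet rise in which Ugt2b34 ranked 10. None of these strain values is therefore independent of the choice. On chow, as a description, the strain difference was -1.98 to -0.88.

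In liver the same gene differed between the strains by at most 0.32 in size on high-fat. Pancreatic duct markers summed to between 36.1 and 89.8 CPM in B6 and between 29.2 and 46.5 CPM in TH, and the part of duct cells in the difference was not tested.

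Ugt2b34 was higher in pancreas after 1 week of high-fat feeding. B6 females went from 10.3, 11.3 and 13.5 CPM on chow to 12.5, 16.9 and 20.5 CPM, and B6 males from 6.70, 11.4 and 12.9 CPM to 17.4, 23.1 and 27.2 CPM. The male ranges stood apart, and the difference with the sexes averaged was 0.83 ± 0.11. In B6 1.98% of all genes passed and 0.995% rose.

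TH females went from 4.62, 6.06 and 8.05 CPM to 9.01, 11.7 and 14.6 CPM, and TH males from 4.32, 5.20 and 5.90 CPM to 7.30, 9.56 and 11.9 CPM, with no overlap in either sex (0.92 ± 0.12). In TH 3.25% passed and 1.23% rose. Acinar markers fell on high-fat at 5 weeks, from group medians of 82989 to 61738 CPM in B6 and 98273 to 76561 CPM in TH. Adipocyte markers rose at 5 weeks, from 21.2 to 27.5 CPM in B6 and from 25.03 to 36.97 CPM in TH. The part of either list in the rise of Ugt2b34 was not tested. The rise of Ugt2b34 was opposite in direction to its fall in liver after the same feeding (-0.42 in B6 and -0.40 in TH). At 20 weeks, where the gene was chosen, the rise was 1.09 and 1.63 in B6 females and males and 0.89 and 2.68 in TH females and males. Acinar medians at 20 weeks were 104162 CPM on chow and 109143 CPM on high-fat in B6, and 116840 and 175908 CPM in TH. In TH males on high-fat at 20 weeks the TMM factors were 0.83 to 0.91 in replicates 1 to 4. They were 1.297 to 2.813 in replicates 5 to 7. The part of either in these values was not tested.

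Ugt2b34 was lower at 20 weeks than at 5 weeks in pancreas in all 4 comparisons on chow, given without a test because the 20-week chow libraries also entered the diet rise taken as behind the choice (11.1% of all genes passed and 5.43% were lower, and 2.67% had ranges that did not overlap). B6 females went from 10.3, 11.3 and 13.5 CPM at 5 weeks to 1.08, 2.70 and 4.98 CPM at 20 weeks (-1.98 ± 0.18). TH males went from 4.32, 5.20 and 5.90 CPM to 0, 0.669 and 1.38 CPM (-2.71 ± 0.28), where 1 library had no read. The difference was -1.83 in B6 males and -2.03 in TH females on the log2 scale, and in all 4 every 20-week mouse was below every 5-week mouse.

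In pancreas, Ugt2b34 was higher in males in 1 of 8 comparisons (3.06% of all genes), B6 on high-fat at 5 weeks (0.42 ± 0.13, adjusted p = 0.0239), a call that DESeq2 did not make (adjusted p = 0.0527). Strain by sex on high-fat passed in 0 of 2 with edgeR (0.931% of all genes), with -0.67 ± 0.20 (adjusted p = 0.081) at 5 weeks and 0.19 ± 0.33 (adjusted p = 0.88) at 20 weeks. DESeq2 also called 0, and 1 of the 2 had an unadjusted p under 0.05. With edgeR, strain by sex gave 1 call without the filter on low counts, with only the groups compared in the fit, and with the replicate number as a block. Strain by diet passed in 0 of 2 with edgeR (0.673%) and with DESeq2, with 0.09 ± 0.16 at 5 weeks and 0.43 ± 0.27 at 20 weeks, and 0 had an unadjusted p under 0.05.

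**Figure D5:**
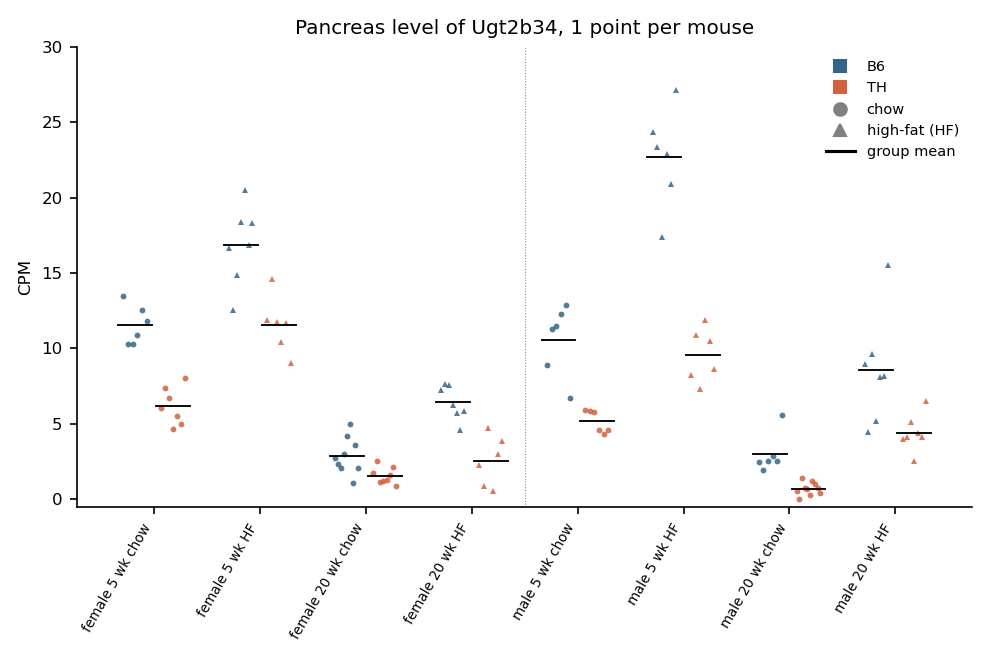
Pancreas level of Ugt2b34 in CPM on a linear axis from 0, by sex, age, strain (B6 blue, TH orange) and diet, with 1 point for each of 110 mice and a bar at each group's mean. Levels are higher at 5 weeks than at 20 weeks, higher on high-fat, and lower in TH.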

How the data were processed

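Poly(A) RNA from 96 livers and 110 pancreases was sequenced as stranded libraries, per the labels' protocols. The authors trimmed reads with Trimmomatic 0.39 and aligned them with HISAT2 2.2.1 to GRCm39, per the submitters' processing notes. For the read counter, its strand setting and its handling of reads with several matches: not given in the sources used here. The deposited counts are whole reads per Ensembl gene, 56980 in all, of which 52073 matched a symbol. The deposited FPKM divide by gene length and library and were used only to compare levels between genes, in sums and without a test.

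Counts were fitted with edgeR 4.0.16 in R 4.3.3 (quasi-likelihood F test), 1 model per tissue with 16 groups, TMM factors and filterByExpr (minimum count 10, minimum total 15), which left 17243 genes in liver and 13367 in pancreas. Each of 32 comparisons per tissue was adjusted over all genes tested by Benjamini-Hochberg at 0.05, and an SE is the log2 difference divided by the square root of F. The smallest groups hold 6 mice. The script was tested on simulated data. Alternatives were RLE factors, no filter, DESeq2 1.42.0, a block for the replicate number, a fit of the compared groups alone and removal of a deviating library; leaving out libraries far from their group in a member, or the B6 male low in Ugt2b1, was added after seeing the data.

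The 7 members and all gene lists were chosen with earlier results of these data known. Named genes are the members, any gene of the lists, and the 3 genes most like each member; some results under this rule are not reported here. GENCODE M21 and RefSeq tables (GRCm38) gave gene order, transcripts and promoters, and none of their coordinates was joined to the counts.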

Additional observations from a re-analysis of the deposited data

Results flagged for a closer look

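In 7 of 128 groups tested, 1 mouse stood apart from its group in a member's level, where chance gives about 1 group in 20. In liver the Ugt2b34 level was 304.1 CPM in replicate 3 of the B6 females on high-fat, 453.8 CPM in replicate 6 of the TH females on chow and 446.1 CPM in replicate 1 of the TH males on chow, all at 20 weeks. Ugt2b35 was at 186.2 CPM in replicate 2 of the TH females on high-fat at 5 weeks. Ugt2b38 was at 4.8 CPM in replicate 3 of the TH males on chow at 20 weeks, and Ugt2b5 at 8.449 CPM in replicate 1 of the TH females on chow at 20 weeks. In pancreas Ugt2b34 was at 5.571 CPM in replicate 6 of the B6 males on chow at 20 weeks.

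In liver the sex difference on high-fat differed between the strains at 5 weeks for Ugt2b5 (1.394 on the log2 scale), Ugt2b35 (0.497), Ugt2b36 (0.8177), Ugt2b37 (-2.015) and Ugt2b38 (2.201), and at 20 weeks for Ugt2b1 (-0.8384) and Ugt2b37 (-3.674). The diet difference of Ugt2b1 at 5 weeks differed between the strains by 0.6966.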

How the results depend on the processing

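No called value changed direction under the alternatives run; values that were tested and did not pass are covered only by the counts of calls. Of 109 called values in liver, 109 stayed past the threshold with RLE factors, with the replicate block and without the B6 male low in Ugt2b1, while 3 calls were lost with DESeq2, 10 without the filter on low counts, 13 with only the groups compared and 7 without libraries far from their group. Of 11 called values in pancreas, 1 was lost, with DESeq2. The 11 hold 4 values of age and 2 of diet at 5 weeks, which are given above without a test because of the choice. Counts of calls stayed within 1.5 times except for small ones. Strain by diet in liver gave 2 calls without libraries far from their group (1 otherwise). Sex in pancreas gave 2 calls without the filter on low counts and 0 with DESeq2 (1 otherwise). Strain by sex on high-fat in pancreas gave 1 call without the filter, with only the groups compared and with the replicate block (0 otherwise), and 0 with DESeq2. Without libraries far from their group, the strain by sex value of Ugt2b5 on chow at 20 weeks was -0.46 and the diet value of Ugt2b34 in pancreas of B6 males at 20 weeks was 1.88. The cause of these changes was not tested. The replicate numbers did not pair the mice: residuals of same-numbered libraries had a mean correlation of 0.0048 in liver and 0.0051 in pancreas, with pairs down to -0.321. With the replicate block the liver calls between strains on high-fat were 21, as without it. One described pancreas value could not be fitted with only its groups, and no liver library met the limit for a deviating library, so that alternative was not run there. At the levels of Ugt2b5 and Ugt2b38 in TH and of every member but Ugt2b34 in pancreas, read number limits the precision. It also does so for Ugt2b34 in TH pancreas at 20 weeks. There males gave 39 reads in 10 libraries on chow and 188 in 7 on high-fat. Females gave 48 reads in 8 libraries on chow and 63 in 6 on high-fat.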
